A study of Mus musculus with 12 samples.

Results

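The Eph receptors are receptor tyrosine kinases and the ephrins are their membrane-bound ligands. Members of both families were followed in the urogenital sinus of mouse fetuses at embryonic stage E18.5. In males this tissue later gives rise to the prostate. The 9 genes described here are the 6 receptors Epha3, Epha4, Epha7, Ephb2, Ephb3 and Ephb4 and the 3 ligands Efna5, Efnb1 and Efnb2. They were taken by gene symbol from a table of 56495 genes, by a rule that used no measured value. The list of members was, however, chosen with earlier results of these data known.

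RNA sequencing gave 12 libraries, 3 from each sex of each genotype. The genotypes were wild type and Inv(Itga6-nsi)d11lac, which is called mutant below. The latter names an inversion with ends at Itga6 and at nsi, together with an allele called d11lac, and the labels did not say whether the mutants were homozygous. All 12 samples were whole urogenital sinus without the bladder and with the proximal urethra, and the female samples also held the vagina. Sex and the presence of vaginal tissue therefore cannot be told apart here. In such mixed tissue, fewer cells of a type and less RNA per cell cannot be told apart either. The labels did not say that replicates came from separate embryos, so every p-value below measures the spread between these libraries, which may be technical.

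Eph receptors bind ephrins on the surface of neighbouring cells, and signals run forward into the receptor's cell and in reverse into the ligand's cell. A-class ephrins are held by a lipid anchor and B-class ephrins span the membrane, and receptors mostly prefer ligands of their own class, with Epha4 binding both. The contacts repel or sort cells and so keep tissue boundaries apart. In the posterior body, Epha7 and other A-class receptors are known targets of the group 13 Hox transcription factors, and Ephb2, Ephb3 and Efnb2 are needed for closure of the urethra and for division of the cloaca. Ephb4 and Efnb2 are also the classical markers of venous and arterial endothelium.

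The start regions of 3 members are shown because these members carry the results below. Epha3 was the only member whose 6 male libraries did not overlap the 6 female libraries. Epha7 kept a nearly fixed ratio to Epha3 within each sex, and Efnb2 was the member most raised in the mutant. Each line gives the 250 bases before the annotated start, 5′ to 3′, from RefSeq on build GRCm38.p6, at chr16:63864176-63864425 (minus strand), chr4:28812881-28813130 (plus strand) and chr8:8661243-8661492 (minus strand). Capitals mark CCAAT and GGGCGG on either strand, which are motifs searched after the expression values were seen.
Epha3: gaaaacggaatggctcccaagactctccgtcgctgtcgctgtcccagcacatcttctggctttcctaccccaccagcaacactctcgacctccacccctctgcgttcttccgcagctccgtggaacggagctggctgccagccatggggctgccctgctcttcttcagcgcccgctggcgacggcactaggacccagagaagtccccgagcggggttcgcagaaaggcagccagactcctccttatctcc
Epha7: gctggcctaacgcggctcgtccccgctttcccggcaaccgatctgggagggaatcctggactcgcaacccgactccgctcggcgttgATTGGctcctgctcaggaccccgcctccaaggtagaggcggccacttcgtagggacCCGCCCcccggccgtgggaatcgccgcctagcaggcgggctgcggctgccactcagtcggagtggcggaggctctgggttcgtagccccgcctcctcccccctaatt
Efnb2: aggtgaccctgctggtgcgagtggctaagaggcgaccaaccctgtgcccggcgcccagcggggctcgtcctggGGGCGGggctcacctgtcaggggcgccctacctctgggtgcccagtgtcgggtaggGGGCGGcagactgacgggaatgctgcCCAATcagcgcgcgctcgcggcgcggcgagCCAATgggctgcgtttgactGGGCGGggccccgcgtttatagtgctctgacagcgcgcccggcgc
The Epha3 stretch held 16 CG dinucleotides and neither motif, and its GC content was 62.8%. That of Epha7 had a GC content of 69.2%, 25 CG dinucleotides and 1 match to each motif. The Efnb2 stretch was the most GC-rich of the 3, at 72.0%, with 27 CG dinucleotides, 2 matches to CCAAT and 3 to GGGCGG. The whole windows in the RefSeq table ran from 250 bases before to 50 bases after the start, and 10 of them belonged to the 9 members, all of which matched by symbol. Their GC content ran from 59.7% to 73.3%, against a median of 52.7% over 32851 promoters. On both strands and in these windows, CCAAT was found in 6 of the 9 members and in 37.4% of all promoters, and GGGCGG in 6 of 9 and in 35.7%. The letters CAATAAA and TCGTAAA, cores of group 13 Hox sites, were found in 0 of 9 members and in 4.6% and 0.597% of all promoters. AGAACA, an androgen receptor half-site, was also found in 0 of 9 and in 19.0% of all promoters. These matches describe letters in a short window only.

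Levels are given as scaled FPKM: fragments per transcript length and mapped total, divided by a factor for each library that ran from 0.748 to 1.13. Depth was estimated from the most common ratio of very low FPKM values between libraries, taken to be steps of single reads. Relative to the deepest library, mutant libraries had estimated depths of 0.582 to 0.717 and those of wild type 0.812 to 1. Hence depth and genotype cannot be told apart, and no counting interval could be given. Xist marked the sexes as labelled, at 5.51 to 10.5 in females and 0 to 0.241 in males. The HoxD gene Hoxd13, which patterns genitals and digits, stood at 15.1 to 20.5 in wild type and 3.15 to 6.23 in mutant libraries. Its log2 difference over both sexes was -1.83 (SE 0.14, adjusted p = 3.69e-05, limma). Hoxd12 was also called lower, with levels between 7.39 and 10.4 in wild type and between 1.26 and 3.03 in the mutant, whereas Hoxa13 (11.6 to 35.1 over all libraries) and Hoxb13 (0.741 to 2.12) were not called. Among markers of urogenital sinus and urothelial identity, Shh, Foxa1, Hoxb13, Upk1a, Upk2 and Upk3a all passed the filter, with summed levels of 44.7 to 198 per library.

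Mutant female 1 lay outside the range of the other 11 libraries for several items. It was the lowest of the 12 for Epha3 (8.54, others at least 22.5), Epha4 (16.7, others at least 19.8), Epha7 (9.09, others at least 10.4) and Efnb1 (20.1, others at least 21.4). It was also the lowest for Hoxa13, at 11.6 against 22.9 to 35.1, for 7 mesenchyme markers summed, at 1900 against 2390 to 3980, and for 9 endothelial markers summed, at 94.4 against 117 to 160. The same library was the highest for 7 general epithelial markers, at 1140 against 405 to 613, for 4 basal epithelial markers, at 877 against 259 to 643, for 6 arterial endothelial markers, at 46.3 against 18.4 to 37.3, and for 6 immune markers, at 87.5 against 37.4 to 79.7. The part that these cell type markers had in its receptor levels was not tested. Results on the members that moved when mutant female 1 was left out are given with and without it. Mutant female 3 was the highest of the 12 for Epha7 (30.8), Ephb2 (25.6), Ephb3 (24.4), Ephb4 (64.9), Efnb1 (34.1), Efnb2 (45.5) and Hoxa13 (35.1). It was the lowest for neuronal markers summed, at 26.7, and for Schwann and glia markers summed, at 24.4.

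**Figure D1:**
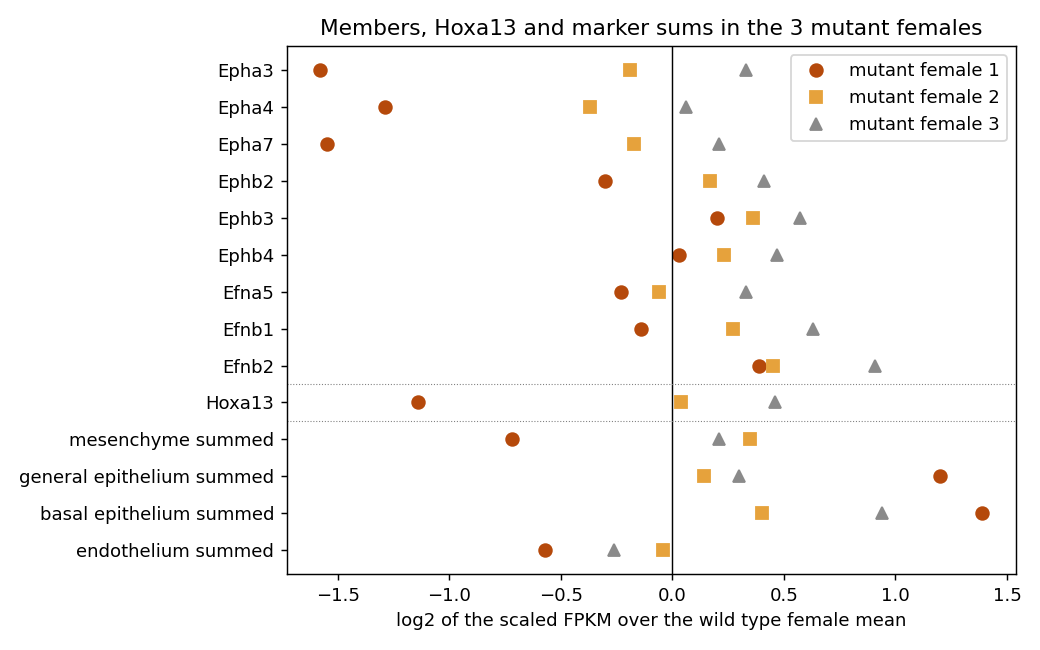
Log2 level of each item in mutant female 1, 2 and 3 relative to the mean of the 3 wild type females. Mutant female 1 sat at -1.58, -1.29 and -1.55 for Epha3, Epha4 and Epha7, while its Efnb2 value of 0.39 lay near the 0.45 of mutant female 2.

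Among the members, levels per transcript length covered about an order of magnitude. In wild type females Ephb4 was highest at 46.7 ± 1.96 (SD, n = 3), followed by Epha4 at 41.1 ± 4.05. Epha7 at 26.7 ± 2.1, Epha3 at 25.7 ± 2.68 and Efnb2 at 24.2 ± 0.863 had overlapping libraries. Efnb1 (22.1 ± 0.635), Ephb2 (19.3 ± 0.723), Ephb3 (16.5 ± 1.08) and Efna5 (4.84 ± 0.741) followed, each below the libraries of the gene before it. In wild type males Epha3 stood first at 56.4 ± 13.9, above Ephb4 at 40.5 ± 2.35. Then came Efnb1 (25.6 ± 0.324), Epha4 (25.4 ± 6.85) and Efnb2 (17.7 ± 2.73), whose neighbours in the order overlapped, and Ephb2 (13.9 ± 1.57), Epha7 (13.2 ± 3.4) and Ephb3 (12.7 ± 1.45), which overlapped as well. Efna5 was again the lowest, at 4.32 ± 0.841. The order therefore opened with Ephb4 in females and with Epha3 in males, in the mutant too, where Ephb4 led in females at 55.8 ± 8.65 and Epha3 in males at 76.1 ± 17.4.

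**Figure D2:**
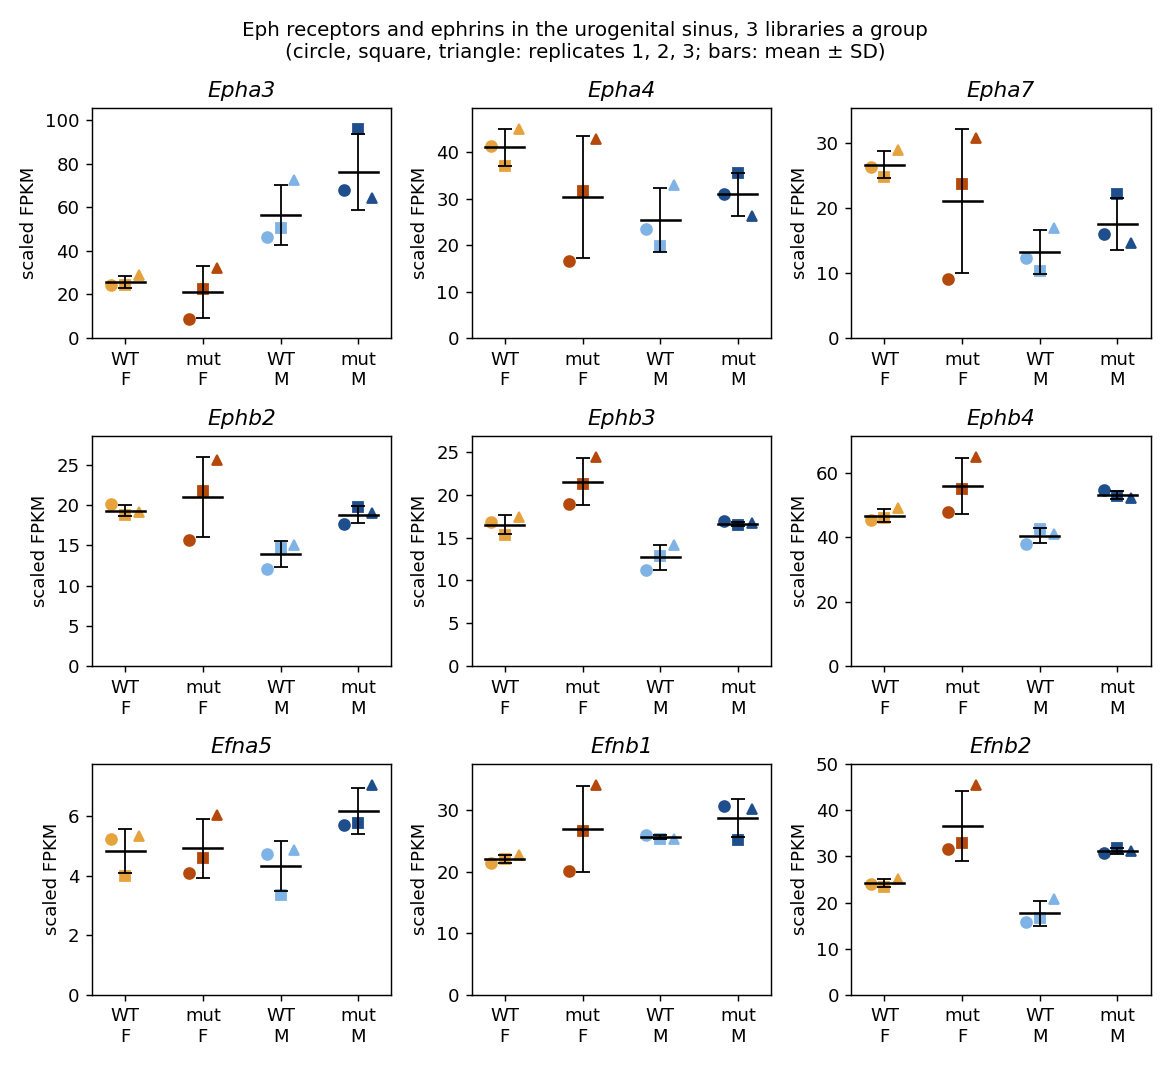
Scaled FPKM of the 9 members in each of the 12 libraries, by group; points are libraries, horizontal bars are group means and error bars are 1 SD (n = 3). Epha3 was at 46.3 or more in every male library and at 32.2 or less in every female library, and Efnb2 was at 30.7 or more in every mutant library and at 25.1 or less in every wild type library.

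The first question was how the members differed between males and females. Epha3, an A-class receptor that binds Efna5 with high affinity, measured 24.2, 24.1 and 28.8 in wild type females 1 to 3 and 46.3, 50.6 and 72.3 in wild type males 1 to 3. In mutant females it measured 8.54, 22.5 and 32.2, and in mutant males 68.1, 96.1 and 64.2. The 6 male libraries (46.3 to 96.1, median 66.2) lay above the 6 female libraries (8.54 to 32.2, median 24.1) with no overlap, which held for 2.57% of the 13904 genes tested, with 2% the other way round. In the mutant, Epha3 was 3.98-fold higher in males (log2 difference 1.99, SE 0.37, 95% interval 1.17 to 2.82, adjusted p = 0.0108 by limma with Benjamini-Hochberg adjustment over all 13904 genes). It was the 1 member of 9 called, and called higher in males. Of all genes 7.49% were called, 3.98% higher and 3.52% lower. Without mutant female 1 the difference was 1.46 and the call held, as it did with each other library left out (adjusted p 0.00318 to 0.0459). Fitted on the mutant libraries alone, the difference was not called (adjusted p = 0.0915).

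In wild type, 0 of 9 members were called between the sexes by limma, against 3.18% of all genes (1.95% higher in males, 1.23% lower), and 6 of 9 had an unadjusted p under 0.05. The Epha3 level was 2.14 times as high in males (log2 difference 1.097, SE 0.37, adjusted p = 0.152). The other A-class receptors had lower means in males and were not called. Epha4, the receptor that binds both ephrin classes, measured 41.4, 37.0 and 45.0 in wild type females and 23.4, 19.8 and 33.0 in wild type males, a log2 difference of -0.71 (SE 0.29, adjusted p = 0.219). Epha7 measured 26.3, 24.9 and 29.0 in wild type females and 12.3, 10.4 and 17.0 in wild type males, a log2 difference of -1.01 (SE 0.36, adjusted p = 0.164). Neither gene overlapped between the sexes in wild type, and in each of the 3 A-class receptors wild type male 3 was the highest of its group.

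The B-class receptors and their ligand Efnb2 were not called in wild type, and their group means were lower in males. In wild type, 6 members lay below the female libraries without overlap (Epha4, Epha7, Ephb2, Ephb3, Ephb4, Efnb2), as did 14.5% of all genes, and 2 lay above (Epha3, Efnb1), as did 17.3%. The log2 differences were -0.46 for Ephb2 (adjusted p = 0.123), -0.37 for Ephb3 (0.0891), -0.21 for Ephb4 (0.297) and -0.45 for Efnb2 (0.101). Efnb1, an X-linked ligand, was at 0.21 (0.488), and Efna5 at -0.16 (0.671). The median of the 9 members was -0.365, and that of all genes 0.006.

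These wild type calls depended on which libraries set the spread. Fitted on the 6 wild type libraries alone, 5 members were called: Epha3 (adjusted p = 0.00902), Epha7 (0.0119), Ephb2 (0.0229), Efnb2 (0.0405) and Epha4 (0.0478). Left out of the fit, mutant female 1 also gave 5 calls, namely Epha3 (0.00939), Epha7 (0.0109), Ephb2 (0.0153), Ephb3 (0.0363) and Epha4 (0.0448). Without mutant female 3 there were 2 calls, and without wild type male 3 there was 1, Efnb2 (0.0402). The log2 difference of Epha3 itself ran from 0.905 to 1.224 with single libraries left out. Mutant libraries enter that difference only through the scaling, and leaving 1 of them out gave 1.094 to 1.099.

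Within the mutant, Epha4 and Epha7 overlapped between the sexes. Epha4 measured 16.7, 31.7 and 42.8 in mutant females and 31.0, 35.6 and 26.4 in mutant males (log2 difference 0.12, 95% interval -0.51 to 0.74, adjusted p = 0.838). Epha7 measured 9.09, 23.8 and 30.8 in mutant females and 16.1, 22.2 and 14.6 in mutant males (-0.12, interval -0.90 to 0.66, adjusted p = 0.867). The mutant female values spread more widely than those of any other group for both genes, and the sign for Epha4 turned without mutant female 1 (-0.26). That for Epha7 turned without mutant female 2 (0.04), mutant female 3 (0.23) or mutant male 3 (0.003). Ephb3 was the 1 member whose mutant male libraries lay below the mutant females without overlap, as did 11.6% of all genes (13.1% above), at a log2 difference of -0.35 (adjusted p = 0.063). Without mutant female 1 it was -0.44 and called (0.0264). The median of the members was -0.06, and that of all genes 0.016.

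Levels of several marker lists are given beside the sex comparison. In wild type males the summed level of 8 skeletal muscle markers was 863 to 1200 against 550 to 736 in wild type females, with 3 of 8 called higher. That of 7 neuronal markers was 363 to 407 against 250 to 310, with 0 of 7 called by limma and 1 at an unadjusted p under 0.05. That of 5 cartilage markers was 7.38 to 9.33 against 2.25 to 3.17, with 1 of 4 tested called higher and Matn1 listed at 0 in all wild type females. In the mutant, skeletal muscle sums overlapped between males (519 to 842) and females (530 to 643), as did neuronal sums (236 to 320 and 26.7 to 331), and cartilage sums were 11.4 to 15.7 and 3.97 to 6.36. The sum of 6 arterial markers was lower in wild type males, at 18.4 to 24.4 against 25.4 to 29.9, with 1 of 5 tested called lower. In the mutant it was 19.4 to 31.4 in males and 32.8 to 46.3 in females. Blood markers overlapped, at 700 to 7210 in wild type males and 5520 to 12600 in wild type females, with 0 of 6 called. Of all genes, 1.95% were called higher in wild type males and 1.23% lower. The part of these lists in the sex differences of the members was not tested.

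The A-class receptors moved together from library to library within a sex, which was seen in ratios within a library. Such ratios do not depend on the scaling, and they were chosen after the values were seen, so they carry no test. They were not corrected for transcript GC content and length. The GC content was 41.9% for Epha3, 41.7% for Epha7 and 45.6% for Epha4, and its part in the ratios was not tested. Epha3 over Epha7 was 0.919, 0.97 and 0.993 in wild type females and 0.939, 0.946 and 1.04 in mutant females. In wild type males it was 3.76, 4.87 and 4.25, and in mutant males 4.24, 4.32 and 4.4. The ratio was thus close to 1 in all females and close to 4 in all males, and it differed between males and females by 2.15 on the log2 scale in both genotypes, with a pooled within-group SD of 0.108. Between mutant and wild type it differed by 0.02 in males and 0.02 in females. Mutant female 1 fell in place on this ratio, at 0.939, although both genes were at their lowest there.

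Epha3 over Epha4 behaved alike, at 0.584, 0.652 and 0.639 in wild type females, 0.51, 0.709 and 0.752 in mutant females, 1.98, 2.56 and 2.19 in wild type males and 2.2, 2.7 and 2.43 in mutant males. Epha4 over Epha7 was narrower between the sexes. It ran from 1.49 to 1.57 in wild type females and from 1.9 to 1.94 in wild type males, and the mutant libraries spanned 1.33 to 1.93. Of the 36 ratios among the 9 members, 9 separated all 6 males from all 6 females. All 8 ratios with Epha3, which separated the sexes on its own, were among them, and the other was Ephb3 over Efnb1. The share over other pairs of genes was not computed.

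**Figure D3:**
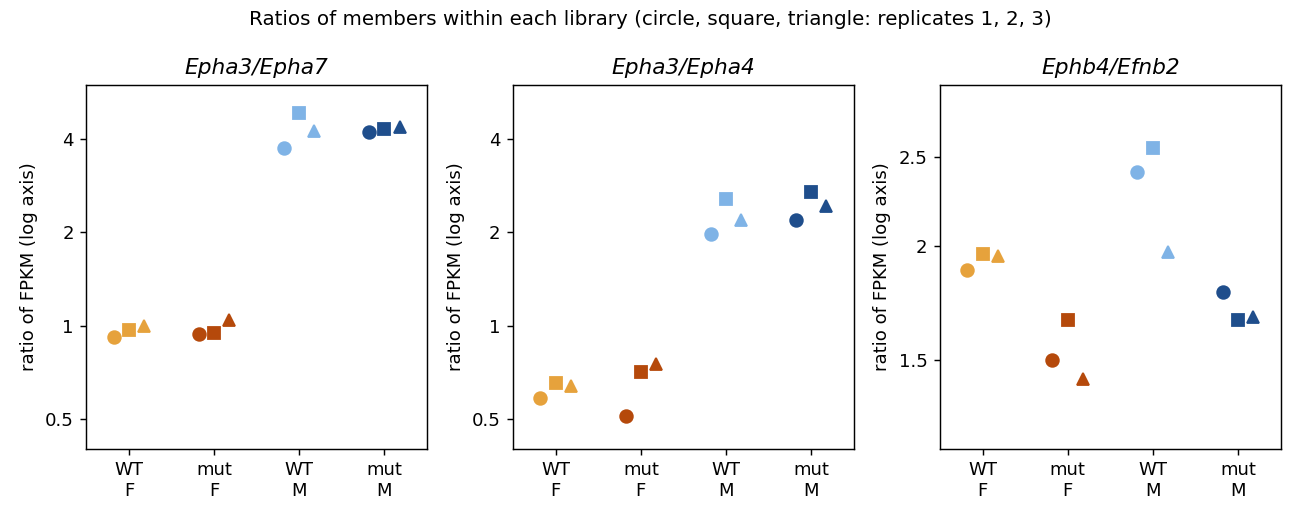
Within-library ratios of 3 pairs of members on log axes, by group; points are libraries. Epha3 over Epha7 formed a female level near 1 and a male level near 4 in both genotypes, and Ephb4 over Efnb2 was lower in all mutant libraries (1.43 to 1.78) than in all wild type libraries (1.88 to 2.56).

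The second question was how the mutant differed from wild type. The strongest difference among the members was in Efnb2, the B-class ligand of Ephb4 and of the other B-class receptors. It measured 24.1, 23.4 and 25.1 in wild type females, 15.7, 16.6 and 20.8 in wild type males, 31.7, 33.0 and 45.5 in mutant females and 30.7, 31.8 and 31.1 in mutant males. All 6 mutant libraries lay above all 6 wild type libraries, as they did for 6.8% of all genes, with 10.3% the other way round. Efnb2 rose 1.61-fold over both sexes (log2 difference 0.69, SE 0.09, 95% interval 0.49 to 0.90, adjusted p = 0.000282). The rise was 0.81 in males (SE 0.13, adjusted p = 0.00389) and 0.57 in females (SE 0.13, adjusted p = 0.00912).

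Over both sexes Efnb2 was called under every alternative tried, with a log2 difference of 0.62 to 0.75 when single libraries were left out. The call in females was lost with the FPKM as deposited (0.47, adjusted p = 0.104) and with scaling to the library sums (0.34, 0.0798). Its transcript GC content, 50.4%, lay near the median of 49.9% over the genes tested, and with that content and length corrected for, the difference over both sexes was 0.63 (adjusted p = 0.00171).

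The B-class receptors Ephb3 and Ephb4 were higher as well. Ephb3 measured 16.8, 15.3 and 17.4 in wild type females, 11.2, 12.9 and 14.1 in wild type males, 18.9, 21.2 and 24.4 in mutant females and 16.9, 16.4 and 16.7 in mutant males. Mutant and wild type libraries did not overlap within either sex. Ephb3 rose by 0.37 on the log2 scale over both sexes (SE 0.07, adjusted p = 0.00218). Ephb4, the receptor of venous endothelium, measured 45.4, 45.9 and 49.0 in wild type females and 47.7, 54.9 and 64.9 in mutant females, which overlapped. In males it measured 37.9, 42.5 and 41.0 in wild type and 54.5, 52.8 and 52.0 in mutant, which did not overlap. Ephb4 was 0.32 higher on the same scale (SE 0.07, adjusted p = 0.00421).

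The calls of these receptors moved with the scaling and with transcript composition. Ephb3 and Ephb4 have GC-rich transcripts, at 57.0% and 58.4%, higher than in 86.3% and 91.2% of the genes tested. After correction for GC content and length their differences over both sexes were 0.12 (adjusted p = 0.257) and 0.04 (0.69). With the FPKM as deposited they were 0.25 (0.149) and 0.19 (0.317), and with scaling to sums 0.21 (0.0804) and 0.15 (0.213).

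In total, 3 of 9 members were called higher over both sexes (Efnb2, Ephb3, Ephb4) and 0 lower, against 18.9% and 21.6% of all genes (40.6% in either direction), and 4 of 9 had an unadjusted p under 0.05. In males 3 members were called higher, against 8.64% of all genes (11.6% lower, 20.3% in either direction): Efnb2, Ephb4 (0.39, adjusted p = 0.0194) and Ephb3 (0.38, 0.0255). In females 2 were called higher, against 12.1% (15.9% lower, 28% in either direction): Efnb2 and Ephb3 (0.37, 0.0222). Without overlap, 5 members lay above wild type in males (Ephb2, Ephb3, Ephb4, Efna5, Efnb2), as did 21.1% of all genes, and 2 in females (Ephb3, Efnb2), as did 20.4%. No member lay below without overlap in either sex, as 22.4% and 22.2% of all genes did. Ephb3 and Efnb2 lay above within both sexes, as did 10.6% of all genes, while 14% lay below. The median of the members was 0.406 in males and 0.092 in females, and that of all genes -0.001 and 0.005.

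Within 1 sex the receptor calls were near the threshold and were lost with fewer libraries, while the differences moved little. In males, Ephb3 was not called without wild type male 1 or 2 or without any 1 of the mutant males (adjusted p 0.0563 to 0.112, with differences of 0.29 to 0.45 over all libraries left out), and Ephb4 was not called without wild type male 1, mutant male 1 or mutant male 2 (0.0518 to 0.084, with 0.34 to 0.42). In females, Ephb3 was not called without wild type female 1 (0.0577), wild type female 2 (0.0825) or mutant female 3 (0.0648), with differences of 0.28 to 0.45. Leaving out mutant female 1 added calls instead: Efnb1 (0.44, 0.0133) and Ephb4 (0.35, 0.0101) in females, and Ephb2 (0.35, 0.00228) and Efnb1 (0.30, 0.00714) over both sexes.

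**Figure D4:**
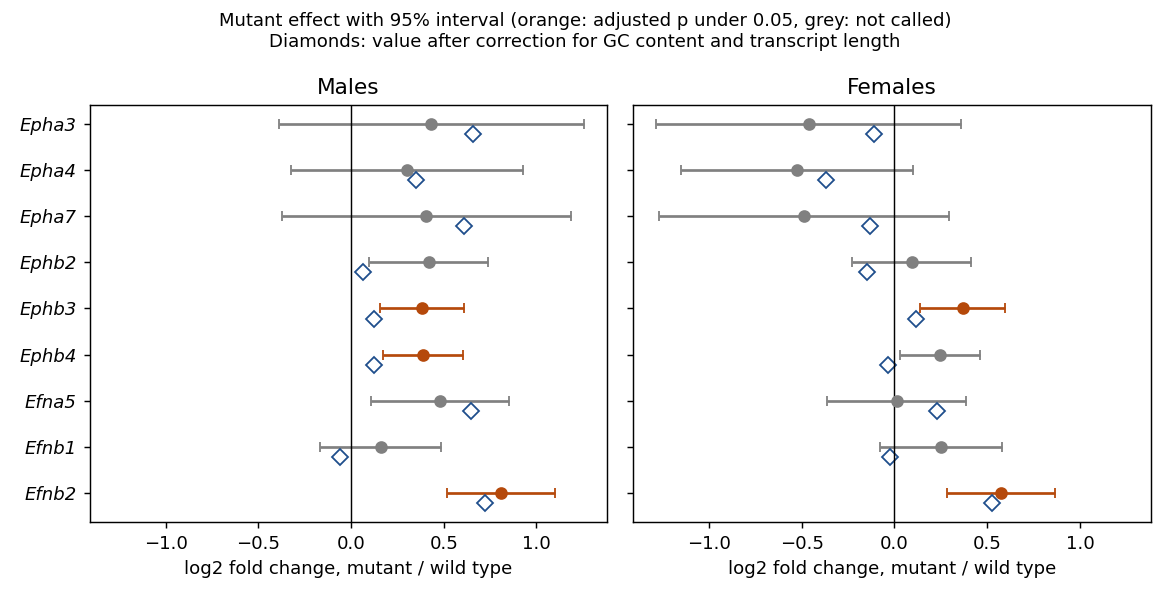
Log2 difference, mutant minus wild type, of each member in males and in females with 95% intervals from limma; orange points are called at an adjusted p under 0.05, grey points are not, and diamonds are values after correction for GC content and transcript length. Efnb2 lay at 0.81 in males and 0.57 in females, and the intervals of Epha3, Epha4 and Epha7 spanned 0 in both sexes.

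The remaining B-class members were not called. Ephb2, the receptor that acts with Ephb3 in urethral closure, measured 12.1, 14.7 and 15.0 in wild type males and 17.6, 19.7 and 19.0 in mutant males. In wild type females it was at 20.1, 18.7 and 19.1 and in mutant females at 15.7, 21.7 and 25.6. Its log2 difference was 0.42 in males (adjusted p = 0.0642) and 0.26 over both sexes (0.0681). The ligand Efnb1 was tight in wild type, at 21.4, 22.1 and 22.7 in females and 25.9, 25.3 and 25.4 in males. It spread in the mutant, at 20.1, 26.6 and 34.1 in females and 30.7, 25.2 and 30.2 in males, with a difference over both sexes of 0.20 (adjusted p = 0.145).

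The A-class ligand Efna5 was the lowest member in every group. It measured 5.22, 3.99 and 5.32 in wild type females, 4.1, 4.6 and 6.02 in mutant females, 4.74, 3.35 and 4.86 in wild type males and 5.69, 5.76 and 7.04 in mutant males. Only the male groups did not overlap, at a difference of 0.48 (SE 0.17, adjusted p = 0.0695), while that over both sexes was 0.245 (adjusted p = 0.126). After correction for GC content and length the latter was 0.44 and called (0.0277), its transcript having a GC content of 44.8%.

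The A-class receptors were not called in either sex. Over both sexes the log2 difference was -0.02 for Epha3 (95% interval -0.60 to 0.57, adjusted p = 0.97), -0.11 for Epha4 (-0.55 to 0.33, 0.687) and -0.04 for Epha7 (-0.59 to 0.51, 0.91). In males the differences were 0.43, 0.30 and 0.41 for Epha3, Epha4 and Epha7 (adjusted p 0.448, 0.491 and 0.456). In females they were -0.46, -0.52 and -0.49 (0.374, 0.189 and 0.326). Over both sexes the signs turned without mutant female 1, to 0.25 for Epha3, 0.08 for Epha4 and 0.21 for Epha7. Without that library, the differences in females were 0.07 for Epha3, -0.15 for Epha4 and 0.02 for Epha7. Without mutant female 3 Epha4 was at -0.81 and called (0.0443).

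The difference of the mutant effect between the sexes was tested directly. For 0 of 9 members and 0 of 13904 genes (background 0%) did it pass in limma, with 0 members and 1225 genes at an unadjusted p under 0.05. The estimates were 0.90 for Epha3 (adjusted p = 0.627), 0.89 for Epha7 (0.613) and 0.83 for Epha4 (0.581). Without mutant female 1 they were 0.36, 0.385 and 0.46, beside 0.36 for Efna5. Efnb2 was at 0.24 (95% interval -0.18 to 0.65, adjusted p = 0.716).

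Efnb2 was also set against its receptors within each library. Ephb4 over Efnb2 was 1.88, 1.96 and 1.95 in wild type females, 2.41, 2.56 and 1.97 in wild type males, 1.5, 1.66 and 1.43 in mutant females and 1.78, 1.66 and 1.67 in mutant males. On the log2 scale the ratio was lower in the mutant by 0.43 in males and 0.34 in females as group means, with a pooled SD of 0.118. All 6 mutant libraries lay below all 6 wild type libraries in 4 of the 36 ratios, all of them over Efnb2 (Ephb2, Ephb3, Ephb4 and Epha4). Efnb2 separated the genotypes on its own, and the share over other pairs of genes was not computed. By contrast, Ephb3 over Ephb4 was the tightest ratio of all, with a pooled SD of 0.073 and values of 0.295 to 0.397. Their transcript GC contents were 57.0% and 58.4%, and the part of GC content in this ratio was not tested.

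Since Efnb2 also marks arterial endothelium and is made by epithelia, and Ephb4 marks venous endothelium, markers of those cells are given beside them. Over both sexes 18.9% of all genes were called higher and 21.6% lower. The summed level of 6 arterial markers was 25.4 to 29.9 in wild type females, 18.4 to 24.4 in wild type males, 32.8 to 46.3 in mutant females and 19.4 to 31.4 in mutant males. Of the 5 arterial markers tested, 1 was called higher over both sexes, Sox17 (0.81, adjusted p = 0.00261). General endothelial markers summed to 133 to 151, 122 to 152, 94.4 to 136 and 133 to 160 in the same order of groups, with 1 of 9 called, lower. Venous and lymphatic endothelial markers summed to 47.4 to 55.8, 53.8 to 68.8, 47.9 to 57.1 and 55.8 to 70.0. Of these 5 markers, 1 was called higher and 1 lower over both sexes. Basal epithelial markers summed to 302 to 391, 259 to 427, 441 to 877 and 407 to 569, and 4 of 4 were called higher over both sexes. General epithelial markers summed to 447 to 551, 405 to 487, 543 to 1140 and 421 to 613, and 2 of 7 were called higher. Of 7 mesenchyme markers 3 were called lower over both sexes (Dcn, Lum, Prrx1) and 0 higher, with a median log2 difference of -0.04. The 7 summed to 2970 to 3250, 2710 to 3210, 1900 to 3980 and 2390 to 3590, which overlapped between the genotypes. Skeletal muscle markers summed to 550 to 736, 863 to 1200, 530 to 643 and 519 to 842, and 6 of 8 were called lower over both sexes. Neuronal markers summed to 250 to 310, 363 to 407, 26.7 to 331 and 236 to 320, and 2 of 7 were called lower. Within males, 6 of 8 skeletal muscle markers were called lower, 1 of 4 basal epithelial higher and 0 of 7 mesenchyme either way. Within females the counts were 0, 4 and 3 (lower). General epithelial markers had 1 called higher within each sex, and neuronal markers 0. Of all genes 8.64% were called higher and 11.6% lower in males, and 12.1% and 15.9% in females. In mutant females 2 and 3, without mutant female 1, the sums were 32.8 and 37.3 for arterial and 441 and 643 for basal epithelial markers. They were 543 and 608 for general epithelial and 3980 and 3590 for mesenchyme markers. Markers called higher over both sexes were also 1 of 7 in smooth muscle, 2 of 4 tested in cartilage and 1 of 6 in blood. Urogenital sinus identity had 1 of 6 called higher, and the immune and the Schwann and glia lists 1 of 6 each called lower. The part of these cell types in the Efnb2 and Ephb4 results was not tested.

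Among the rest of the family, 5 of 8 receptors passed the filter on low values, and Epha6, Epha8 and Epha10 did not, with levels from 0 to 1.35. Over both sexes 3 of the 5 were called higher and 1 lower, against 18.9% and 21.6% of all genes. Epha2, a receptor of epithelia, had group means of 4.23 ± 0.294 and 4.03 ± 0.358 in wild type females and males and 6.33 ± 1.29 and 6.25 ± 0.454 in mutant females and males, and rose by 0.54 (adjusted p = 0.000807). Epha1, another epithelial receptor, rose by 0.73 (0.00742), with its highest level, 13.5, in mutant female 1. Ephb6, which lacks kinase activity, rose by 0.35 (0.0027). Epha5 fell by 0.76 on the log2 scale (0.00528), from 6.61 ± 0.856 and 3.51 ± 0.972 in wild type females and males to 3.28 ± 1.39 and 2.2 ± 0.432 in the mutant. After correction for GC content and length Epha2 (0.32, 0.0318) and Epha1 (0.55, 0.0472) were still called, and Epha5 (-0.40, 0.0897) and Ephb6 (0.06, 0.579) were not. All 5 other ephrins were tested and 1 was called higher, Efna4 (0.38, 0.00625), which was not called after the correction (0.22, 0.124). Levels of the family members not called ran from 0.476 to 2.11 for Ephb1, 12.2 to 16.5 for Efna1, 4.4 to 7.46 for Efna2, 4.91 to 8.36 for Efna3 and 8.05 to 13.3 for Efnb3. With scaling to sums Ephb6 (0.18, 0.106) and Efna4 (0.21, 0.0919) were not called either.

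Downstream of the receptors, all 28 genes of a list of forward signalling were tested, and 7 were called higher and 9 lower over both sexes (18.9% and 21.6% of all genes), with a median of -0.003 against 0.004 over all genes. Rasa1, a GTPase-activating protein for Ras, stood at 15.3 to 18.2 in wild type libraries and fell to between 7.43 and 12 in the mutant (-0.93, adjusted p = 9.51e-05). Cdc42, a small GTPase that directs actin, stood at 170 to 203 and fell to between 112 and 129 (-0.61, 4.87e-05), and Nck1, an adaptor protein, fell by 0.53 on the log2 scale (0.00019). Arhgef16, a guanine nucleotide exchange factor, rose by 0.58 (0.0055). After correction for GC content and length Rasa1 (-0.62, 0.00131) and Cdc42 (-0.27, 0.00492) were still called, and Nck1 (-0.08, 0.391) and Arhgef16 (0.34, 0.103) were not.

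Of 11 genes of reverse signalling and ephrin cleavage 10 were tested, and 4 were called higher and 2 lower over both sexes, beside the same 18.9% and 21.6% of all genes. Sdcbp, a PDZ protein that binds B-class ephrins, fell by 0.51 on the log2 scale (0.000115), and Adam10, the protease that sheds ephrins, fell by 0.42 (0.000962). Dvl2, an adaptor of the Wnt pathway, rose by 0.45 (0.00141), and Grip1, a PDZ scaffold bound by B-class ephrins, rose by 0.31 (0.00448). Corrected for GC and length, Grip1 kept its call (0.34, 0.00628), and the other three did not, with Sdcbp at -0.13 (0.17), Adam10 at -0.11 (0.178) and Dvl2 at 0.19 (0.118). With scaling to sums Grip1 was at 0.16 and not called (0.15). Between the sexes, Chn1, a Rac GTPase-activating protein that acts below Epha4, was the 1 gene of both signalling lists to be called. It was higher in wild type males (0.39, 0.0172), as 1.95% of all genes were.

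Finally, each member was set beside the genes whose log2 levels were most like it over the 12 libraries. Likeness was Pearson's r among 11253 named genes with a mean of at least 2 scaled FPKM. Unnamed gene models, pseudogenes and short RNAs were left out by symbol and annotated type. That step also left out every symbol that begins with Rn. Since the libraries share sex, genotype and depth, these values describe patterns and carry no test. Epha3 was most like Srd5a2 (0.978), the enzyme that makes dihydrotestosterone, and Efemp1 (0.973), a matrix protein. Srd5a2 measured 4.4, 4.52 and 4.73 in wild type females and 12.2, 10.4 and 14.4 in wild type males. In the mutant it was at 1.51, 4.31 and 8.69 in females and 13.9, 17.8 and 15.9 in males, again lowest in mutant female 1.

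Epha4 was most like another member, Epha7 (0.966), and Hmcn1 (0.957), and Epha7 was most like Pcdh18 (0.972), a protocadherin, and Drp2 (0.971). Ephb2 stood with Fbxl7 (0.959) and the integrin subunit gene Itgb5 (0.947), and Ephb3 with Lnx2 (0.972) and Nfatc4 (0.969). Ephb4 was most like Dedd (0.975) and Men1 (0.975), and Efnb1 was most like Hic1 (0.958) and Mn1 (0.909). Efna5 had the lowest values of all members, with Tnrc6b (0.917) and Cbl (0.908). Efnb2 had the highest, with Plxnb2 (0.99), a semaphorin receptor of the plexin family, and Gcn1 (0.983). Plxnb2 measured 33.3 to 47.3 in wild type and 53.9 to 65.9 in mutant libraries, without overlap.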

How the data were processed

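RNA from 12 urogenital sinus samples was sequenced from ribosomal-RNA-depleted, strand-specific single-end libraries, per the labels. The authors deposited FPKM values for 56495 genes, per the file headers. No column belonged to another series (0 found). Cufflinks 2.2.1, STAR 2.7.10a, bedtools 2.30.0 and cutadapt 4.1, and the builds mm39 and mm10, are named without roles, per the submitters' processing notes. FPKM hold no counts, so depth was only estimated, relative to the deepest library.

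Median-ratio scaling used the 11897 genes that reached 1 FPKM in every library. The 13904 genes that reached 1 FPKM in 3 or more libraries were tested, as log2 of scaled FPKM plus 0.5, a scale that understates changes of low genes. The fit was limma 3.58.1 in R 4.3.3 with 4 group means, an intensity trend and two-sided tests, adjusted by Benjamini-Hochberg over all genes tested. Genes with an adjusted p under 0.05 are called. The script was tested on simulated data. GC content and length came from GENCODE M21 transcripts (13735 of 13904 genes).

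The members, lists, comparisons and alternatives were chosen with earlier results of these data known. The ratios and the motifs other than the Hox cores were chosen after the values were seen. Named were all members, every other family member past the filter, up to 4 called genes of each signalling list with the largest change over both sexes, group 13 and 12 Hox genes, and 2 most-alike genes for each member. Chn1, Sox17 and Xist and the called mesenchyme markers were named beside a list or as a check, Chn1 after its value was seen. The settings varied were the pseudocount (0.1 and 1), the filter (none, or 5 FPKM), the scaling (FPKM as deposited, or set to equal sums), and also fits on the groups compared, a replicate block, a GC and length correction (splines with 5 degrees of freedom), and leaving out each library. Protein sequences were not used here. A marker of the tissue identity list is not reported here.

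Positions in the deposited table are given as mm39, since 2.84% of its genes found in GENCODE M21 (GRCm38) had the same end there. They are chr16:63363897-63684521 for Epha3, chr1:77343822-77491725 for Epha4, chr4:28813131-28967499 for Epha7, chr4:136374850-136563299 for Ephb2 and chr16:21023505-21042054 for Ephb3. Ephb4 lies at chr5:137348371-137372794, Efna5 at chr17:62911179-63188312, Efnb1 at chrX:98179736-98192597 and Efnb2 at chr8:8667434-8711242.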

Additional observations from a re-analysis of the deposited data

How the results depend on the processing

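Members called moved from 3 to 1 in males and over both sexes, and from 2 to 0 in females, both with the FPKM as deposited and with scaling to sums. The GC and length correction gave 1 in males and 1 in females, and fits on the groups compared gave 1 in females, 5 between the sexes in wild type and 0 in mutant. With single libraries left out the ranges were 1 to 5 in males, 1 to 4 in females, 3 to 5 over both sexes, 0 to 5 between the sexes in wild type and 1 to 2 in mutant. The test of a sex difference in the effect had 0 members called throughout. The cause of these changes was not tested.

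Genes called between mutant and wild type numbered 2820 (males), 3895 (females) and 5639 (both sexes). Males against females gave 442 in wild type and 1042 in mutant, and the sex difference of the effect gave 0. FPKM as deposited gave 1350 (121 higher, 1229 lower, from 1202 and 1618), 1666 (231 and 1435, from 1687 and 2208), 3424 (552 and 2872, from 2631 and 3008), 254 (181 and 73, from 271 and 171), 401 and 1. This moved the median of all genes to -0.14 in males and -0.111 over both sexes. Scaling to sums moved it to -0.149 over both sexes, -0.211 in females, 0.175 for mutant males against females and 0.132 for the sex difference of the effect. It gave 320 higher and 4038 lower in females, 824 and 4617 over both sexes, 444 and 1992 in males, and 1932 (1702 and 230, from 553 and 489) between the sexes in mutant. The GC and length correction gave 503 in males, 1077 in females (584 and 493) and 2387 over both sexes. Fits on the groups compared gave 2360 in females, 1247 between the sexes in wild type and 215 in mutant. No filter gave 661 between the sexes in mutant and 8 for the difference, a filter at 5 FPKM gave 243 between the sexes in wild type, and a pseudocount of 0.1 gave 1 for the difference. With single libraries left out, counts were 1240 to 3948 in males, 2439 to 4112 in females, 4675 to 6364 over both sexes, 160 to 990 between the sexes in wild type, 433 to 1369 in mutant and 0 to 1 for the difference.

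Signs that turned were of differences not called. With the GC and length correction these were Efnb1 in males (-0.061), females (-0.024) and over both sexes (-0.042), Ephb2 in females (-0.149) and over both sexes (-0.043), Ephb4 in females (-0.035), Epha3 (0.27) and Epha7 (0.24) over both sexes and Epha4 between the sexes in mutant (-0.002). With scaling to sums they were Efna5 (-0.21) and Ephb2 (-0.14) in females, Epha7 (0.052), Ephb2 (0.038) and Ephb4 (0.115) between the sexes in mutant, and Efnb1 for the difference of the mutant effect (0.046). With FPKM as deposited they were Efna5 (-0.079) and Ephb2 (-0.006) in females and Ephb3 for the difference (-0.038). With single libraries left out, ranges that crossed 0 in females were those of Efna5 (-0.13 to 0.12), Epha3 (-0.853 to 0.071), Epha7 (-0.829 to 0.021) and Ephb2 (-0.056 to 0.282). Over both sexes they were Epha3 (-0.21 to 0.25), Epha4 (-0.253 to 0.075) and Epha7 (-0.21 to 0.21), and for the difference Efnb1 (-0.283 to 0.092) and Ephb3 (-0.074 to 0.107). Between the sexes in mutant they were Efnb1 (-0.073 to 0.298), Epha4 (-0.26 to 0.41), Epha7 (-0.63 to 0.23), Ephb2 (-0.323 to 0.016) and Ephb4 (-0.166 to 0.051). Of single-gene results under an alternative, 1469 kept direction and call, 80 lost the call, 30 gained it and 45 turned sign.

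The labels number replicates 1 to 3 in each group. Deviations from group means correlated at over 0.1 in 3 of 18 same-number pairs (r -0.226 to 0.317). The highest r was between wild type female 3 and wild type male 3. Of 36 best matches, 12 had the same number. With 3 libraries a group this check cannot exclude a batch shared by some numbers. With a replicate block, members called were 5 over both sexes, 5 in males, 2 in females and 2 for mutant males against females, and genes called were 2857, 3935, 5770, 365, 963 and 0 in the order above. Depth was estimated only in relative terms, so no counting error can be given for low values such as those of Efna5.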
